A study of Mus musculus with 18 samples.

Results

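The CXC chemokines are small secreted proteins that direct the movement of leukocytes, and 10 of their genes were followed in sorted epidermal cells of a mouse model with psoriasis-like skin disease. The genes were chosen by symbol (Cxcl1, Cxcl2, Cxcl3, Cxcl5, Ppbp, Cxcl9, Cxcl10, Cxcl12, Cxcl14 and Cxcl16), and all 10 were found among the 23951 genes measured. In DKO* mice, Cxcl1, Cxcl2, Cxcl3 and Cxcl5 were higher than in control cells in all 4 sorted populations, while Cxcl14 and Cxcl12 were lower in 3 of them.

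Each of the 18 libraries held cells sorted from the ear skin of 1 mouse, 7 days after tamoxifen, with 3 mice in each of 6 groups. DKO* mice carried floxed alleles of both genes (JunB f/f, c-Jun f/f), the K5-Cre-ERT transgene, which is active in basal keratinocytes under the keratin 5 promoter, and the mT/mG reporter, which switches a cell from Tomato to GFP when Cre has acted. Control mice (Co) carried the same transgene and reporter but were wild-type, or heterozygous, for JunB and for c-Jun, and which of these genotypes each Co mouse had is not given in the sources used here. Mice were 8 weeks old and received 4 daily injections of 2 mg tamoxifen, controls included. Bulge hair follicle stem cells (HF-SCs) were gated as CD45- CD49f high CD34+ and basal keratinocytes (b-KCs) as CD45- CD49f high CD34-. From each cell type of DKO* mice 814, 815 and 817, a GFP fraction (mutant) and a Tom fraction (non-mutant) were sorted, and HF-SCs and b-KCs of mice 810, 825 and 828 were the Co groups, for which the labels name no fluorescent fraction.

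Values are FPKM, read numbers scaled to transcript length and library depth, so that levels can be set beside each other between genes. Values of 3 libraries are given in the order of mice 810, 825 and 828 for Co and 814, 815 and 817 for GFP and Tom. The step between low FPKM values implied 16541600 to 26292700 reads per library, and 3 reads on a transcript of 1 kb, used here as the floor, were worth 0.114 to 0.181 FPKM. Jun was at 835 to 1086 FPKM in Co cells, at 29.6 to 88.4 in GFP cells and at 163 to 614 in Tom cells, and Junb at 436 to 772, 37.2 to 77.5 and 208 to 402. The Tom fractions thus had less Jun and Junb than Co in every library. Cd34, which the gate used, was at 639.8 to 889 FPKM in HF-SC Co, at 161 to 228 in HF-SC GFP, at 259.6 to 319 in HF-SC Tom and at 0.341 to 2.53 in b-KCs. Krt15 had a value of 0 in 1 HF-SC Co library and Krt14 at 0 in 3 b-KC libraries of DKO* mice, so a listed 0 can be a failed estimate. In bulk samples, fewer cells of a type and less RNA per cell cannot be told apart.

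As background, mouse Cxcl1, Cxcl2, Cxcl3, Cxcl5 and Ppbp encode ligands with a Glu-Leu-Arg (ELR) motif, which attract neutrophils through the receptor Cxcr2, and keratinocytes make several of them when interleukin-17, interleukin-1 or tumour necrosis factor activates NF-kB. Cxcl9 and Cxcl10 are interferon-induced ligands of Cxcr3 on T cells. Cxcl12 (ligand of Cxcr4 and Ackr3) and Cxcl14 are made constitutively in skin, and Cxcl16 is a membrane-bound ligand of Cxcr6 that the protease Adam10 can shed. In psoriatic skin, neutrophils and T cells gather in the epidermis.

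The ELR ligand genes lie close together on chromosome 5 (NCBIM37), Cxcl5 at chr5:91188325-91190651, Ppbp at chr5:91197544-91199086, Cxcl3 at chr5:91215129-91217112, Cxcl1 at chr5:91320267-91322141 and Cxcl2 at chr5:91332897-91334935, all on the plus strand. Cxcl9 (chr5:92750357-92757105) and Cxcl10 (chr5:92775664-92777915) lie further along the same chromosome on the minus strand. Cxcl12 is at chr6:117118553-117131385, plus strand, Cxcl14 at chr13:56390008-56397912 and Cxcl16 at chr11:70267485-70273486, both minus strand.

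The promoters of 4 genes are shown because their genes rose in DKO* cells and their windows hold matches to NF-kB letters. RefSeq promoter windows (GRCm38.p6 table) were found for 8 of the 10 genes, the 250 bases before the start were placed in NCBIM37 by an exact match, and each was ended before the annotated start of the gene. Capitals mark matches on either strand to GGG, any 3 bases and TTCC (NF-kB), to TGANTCA (AP-1), or to TTTC, any 2 bases and TTTC (interferon response element).
Cxcl1 (chr5:91320021-91320266, plus strand): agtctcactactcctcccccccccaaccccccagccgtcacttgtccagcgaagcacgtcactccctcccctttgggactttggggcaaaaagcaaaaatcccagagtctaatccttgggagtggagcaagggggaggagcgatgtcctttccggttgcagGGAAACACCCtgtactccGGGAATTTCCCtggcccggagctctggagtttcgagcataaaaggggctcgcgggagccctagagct
Cxcl2 (chr5:91332675-91332896, plus strand): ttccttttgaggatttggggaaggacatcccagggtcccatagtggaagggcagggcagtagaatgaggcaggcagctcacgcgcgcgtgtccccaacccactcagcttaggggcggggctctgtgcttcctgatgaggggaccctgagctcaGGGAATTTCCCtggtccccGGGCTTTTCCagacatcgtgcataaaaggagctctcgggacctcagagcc
Cxcl3 (chr5:91214877-91215126, plus strand): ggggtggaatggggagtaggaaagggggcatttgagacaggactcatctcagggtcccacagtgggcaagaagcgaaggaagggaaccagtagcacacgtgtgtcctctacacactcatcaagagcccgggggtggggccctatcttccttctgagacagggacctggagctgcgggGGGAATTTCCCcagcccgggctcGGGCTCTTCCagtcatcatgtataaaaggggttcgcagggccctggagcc
Cxcl10 (chr5:92777916-92778165, minus strand): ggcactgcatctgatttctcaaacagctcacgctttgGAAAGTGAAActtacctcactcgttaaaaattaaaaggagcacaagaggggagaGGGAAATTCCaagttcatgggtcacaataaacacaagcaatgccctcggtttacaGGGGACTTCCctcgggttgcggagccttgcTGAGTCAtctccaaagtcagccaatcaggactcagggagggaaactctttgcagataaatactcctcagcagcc

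The NF-kB letters were found in 4 of the 8 windows, those of Cxcl1, Cxcl2, Cxcl3 and Cxcl10, each with 2 separate stretches, and in 4.65% of all 32851 RefSeq windows of this length. The windows of Cxcl1, Cxcl2 and Cxcl3 share the run GGGAATTTCCC, whose 2 overlapping matches were counted as 1 stretch and which is the longest run common to the 3. Counted from the RefSeq start, its first base lies 71 bases upstream in Cxcl1, 97 in Cxcl2 and 73 in Cxcl3, and 14 of all 32851 windows (0.0426%) hold it. The AP-1 letters, those that Jun and Junb proteins bind, were found in Cxcl10, 74 bases upstream, and in Ppbp, 204 bases upstream, against 6.75% of all windows. The interferon response element was found in Cxcl10 and Cxcl14, 213 and 172 bases upstream, against 2.98% of all windows. The windows of Cxcl9 and Cxcl12 held none of the 3. A match is a description of letters and not a bound site. Cxcl5 and Cxcl16 were not searched.

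Of the ELR ligands, Cxcl1, Cxcl2, Cxcl3 and Cxcl5 were low or near the floor in Co cells and higher in DKO* cells. Cxcl1 was at 21.3, 8.63 and 11.2 FPKM across HF-SC Co, at 236, 148 and 203 across HF-SC GFP and at 416, 397 and 139 across HF-SC Tom. In b-KCs it was at 39.2, 22.4 and 37.1 FPKM across Co, at 363, 312 and 249.7 across GFP and at 74.3, 105 and 160.1 across Tom. Every DKO* library lay above every Co library of its cell type. The group means were 14.3-fold (HF-SC GFP), 23.2-fold (HF-SC Tom), 9.37-fold (b-KC GFP) and 3.44-fold (b-KC Tom) those of Co.

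On the log2(FPKM + 1) scale, Cxcl1 rose by 3.81 ± 0.41 in HF-SC GFP (SE, n = 3 against 3, adjusted p = 3.74e-06, limma, Benjamini-Hochberg adjustment over 12751 genes) and by 4.37 ± 0.41 in HF-SC Tom (adjusted p = 7.62e-07). It rose by 3.21 ± 0.41 in b-KC GFP (adjusted p = 4.42e-05) and by 1.72 ± 0.41 in b-KC Tom (adjusted p = 0.00312). A gene was called where the adjusted p fell below 0.01. The b-KC Tom call was lost without mouse 815, 825 or 828 (adjusted p = 0.0118 to 0.0216, and 0.00192 to 0.0216 over all 14 alternatives). In the HF-SC Tom libraries, where Cxcl1 was highest, 12 endothelial markers summed to 1886, 1959 and 629 FPKM in mice 814, 815 and 817, against 71.6 to 120 in HF-SC Co and 1.98 to 38.4 in HF-SC GFP. All 12 were called higher in HF-SC Tom, where 15.7% of all genes were, but Cldn5, Cdh5 and Kdr had fewer than 3 Co libraries at 1 FPKM and passed the filter only with their DKO* libraries. Cxcl1 and the endothelial sum were both lowest in mouse 817. Their part in the HF-SC Tom values was not tested. In b-KCs the endothelial sum was 1.71 to 11.8 FPKM in every library.

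Cxcl2 was at 0.360, 0.593 and 0.379 FPKM across HF-SC Co, at 34.5, 29.7 and 34.7 across HF-SC GFP and at 21.9, 19.7 and 15.6 across HF-SC Tom. The b-KC values were 0.994, 0.856 and 1.45 FPKM across Co, 39.5, 32.8 and 23.6 across GFP and 10.9, 12.9 and 14.0 across Tom. No DKO* library overlapped with Co, and the GFP libraries lay above the Tom libraries in both cell types. Cxcl2 rose by 4.56 ± 0.18 in HF-SC GFP (adjusted p = 5.28e-10, limma), 3.79 ± 0.18 in HF-SC Tom (adjusted p = 1.69e-09), 3.95 ± 0.18 in b-KC GFP (adjusted p = 1.58e-09) and 2.70 ± 0.18 in b-KC Tom (adjusted p = 9.99e-08), and each call held without any 1 mouse.

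Cxcl3 and Cxcl5 were close to absent from Co cells. Cxcl3 was at 0.192, 0 and 0 FPKM across HF-SC Co and at 0.212, 0 and 0 across b-KC Co, which corresponds to 4 and 5 implied reads in mouse 810 and to none in mice 825 and 828. It was at 73.0, 60.01 and 51.2 FPKM across HF-SC GFP, at 15.6, 9.08 and 39.8 across HF-SC Tom, at 85.9, 78.2 and 18.02 across b-KC GFP and at 21.7, 22.1 and 18.7 across b-KC Tom. These are 241 to 1712 implied reads per library. Cxcl3 rose by 5.86 ± 0.49 in HF-SC GFP (adjusted p = 3.56e-07, limma), 4.16 ± 0.49 in HF-SC Tom (adjusted p = 7.11e-06), 5.57 ± 0.49 in b-KC GFP (adjusted p = 1.41e-06) and 4.35 ± 0.49 in b-KC Tom (adjusted p = 8.46e-06).

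Cxcl5 was at 0.0589, 0 and 0.173 FPKM across HF-SC Co and at 0.104, 0 and 0.0887 across b-KC Co. It reached 38.3, 37.8 and 5.66 FPKM across HF-SC GFP, 18.03, 5.81 and 6.89 across HF-SC Tom, 62.0, 75.5 and 7.50 across b-KC GFP and 27.0, 18.1 and 5.31 across b-KC Tom. Mouse 817 had the lowest Cxcl5 in 3 of the 4 DKO* populations, and still lay above every Co library. The sum of 4 suprabasal markers was also lowest in mouse 817 in HF-SC GFP (1150, 1475 and 639.7 FPKM, against 306 to 429 in HF-SC Co), with 2 of 4 called higher (Ivl and Krt1, background 13.0%), and it was 531 to 688 FPKM in HF-SC Tom, where Krt1 was called higher. In b-KCs that sum was lower in DKO* cells, at 1322 to 3267 FPKM against 3576 to 4537 in Co. Krt10 and Lor were called lower in both fractions (background 12.0% in GFP and 15.3% in Tom). Krt10 carried most of the fall, from 2580 to 3418 FPKM in Co to 719 to 1283 in GFP and 717 to 813 in Tom. Krt1 (909 to 1073, 884 to 1148 and 592 to 2442 in the same order) and Ivl (15.6 to 26.4, 11.2 to 48.5 and 9.92 to 12.4) were not called. The part of the suprabasal markers in the Cxcl5 values was not tested. Cxcl5 rose by 4.33 ± 0.79 in HF-SC GFP (adjusted p = 4.96e-04, limma), 3.23 ± 0.79 in HF-SC Tom (adjusted p = 0.00384), 5.02 ± 0.79 in b-KC GFP (adjusted p = 2.37e-04) and 3.82 ± 0.79 in b-KC Tom (adjusted p = 0.00122). The HF-SC Tom call was lost without any 1 mouse other than 817 (adjusted p = 0.0114 to 0.0244, and 6.16e-07 to 0.0244 over all alternatives), and the b-KC Tom call without mouse 815 (adjusted p = 0.0107, and 1.04e-07 to 0.0107 over all alternatives).

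Since Co values lay near the floor, the size of these fitted changes depends on the pseudocount. With 0.1 in place of 1, the fitted rise was 6.97 to 8.73 for Cxcl3 and 5.80 to 7.71 for Cxcl5 over the 4 comparisons. Cxcl3 and Cxcl5 passed the filter, at least 1 FPKM in at least 3 libraries, through their 12 DKO* libraries alone. Cxcl2 did so through the same 12 and 1 Co library. Reads of Cxcl2 and Cxcl3 can be shared in part, since 112 of the 959 possible 51-base reads of Cxcl3 (11.7%) match Cxcl2 within 2 mismatches. No other pair of the 10 genes shared a read.

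**Figure D1:**
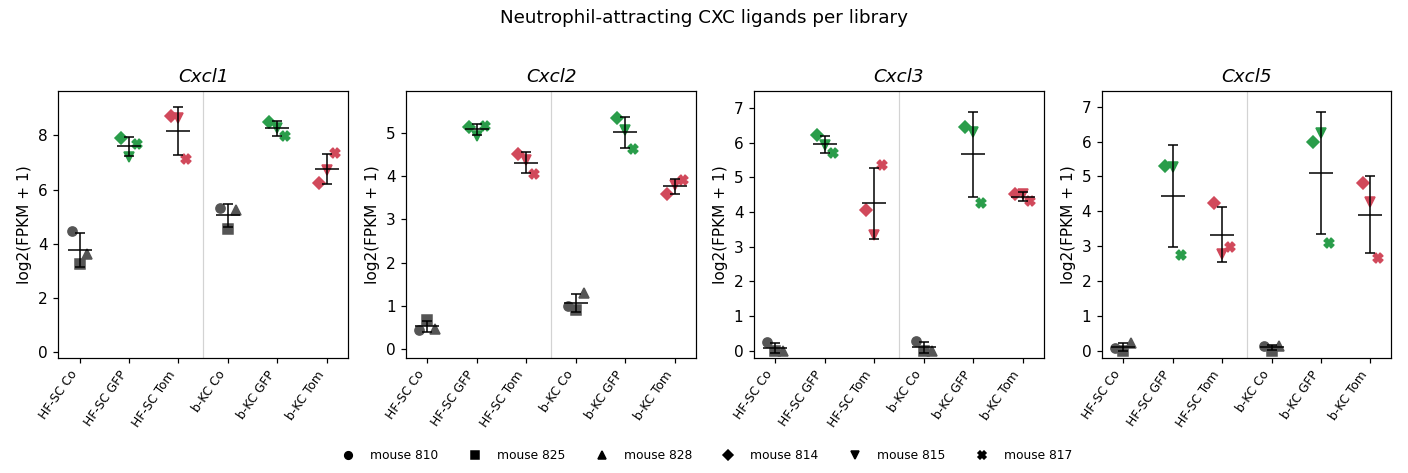
Each panel plots log2(FPKM + 1) of 1 ELR ligand gene in the 18 libraries, by group on the horizontal axis, with 1 symbol per mouse and the mean and SD of 3 mice as bars. The Co libraries of Cxcl3 and Cxcl5 sit near 0, and every DKO* library of the 4 genes lies above every Co library of its cell type.

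Ppbp, which encodes platelet basic protein and lies between Cxcl5 and Cxcl3, stayed near 0. It reached 1 FPKM in no library and was not tested. It was listed at 0 in all 3 HF-SC Co and all 3 b-KC GFP libraries, at 0, 0 and 0.0454 FPKM across b-KC Co and at 0.131, 0.0939 and 0 across b-KC Tom. Its highest values were 0.0830, 0 and 0.545 FPKM across HF-SC GFP and 0.0560, 0 and 0.359 across HF-SC Tom, or 2, 0 and 14 and 1, 0 and 10 implied reads. Both highest values came from mouse 817. In HF-SC GFP of that mouse 8 platelet markers summed to 23.3 FPKM, mostly Pf4 at 21.7, against 2.38 to 11.8 in the other HF-SC libraries, and the leukocyte sum (12 markers) was 26.5 there and 19.9 in HF-SC Tom of that mouse, against 5.96 to 9.31 in the others. Of these platelet markers, 4 were tested, 0 were called in HF-SC GFP against Co and 2, Itga2b and Itgb3, were higher in HF-SC Tom, though both passed the filter through DKO* libraries alone, so these calls support nothing. Of the leukocyte markers 3 were tested and 0 called in either comparison (limma). Their part in the Ppbp reads was not tested.

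The interferon-induced ligands moved less. Cxcl10 was at 2.53, 1.36 and 4.89 FPKM across HF-SC Co, at 10.3, 10.5 and 15.5 across HF-SC GFP and at 11.4, 22.2 and 4.83 across HF-SC Tom. GFP libraries lay above all Co libraries, and 1 Tom library, that of mouse 817, lay within them. Cxcl10 rose by 1.82 ± 0.41 in HF-SC GFP (adjusted p = 0.00280, limma) and by 1.70 ± 0.41 in HF-SC Tom (adjusted p = 0.00384). The GFP call was lost without mouse 810, 814 or 825 (adjusted p = 0.0142 to 0.0225, and 0.00217 to 0.0225 over all alternatives), and the Tom call without mouse 810, 814, 815 or 825 or with only the groups compared (adjusted p = 0.0184 to 0.0474, and 1.83e-04 to 0.0474 over all alternatives). In HF-SC Tom, Cxcl10 was highest in mouse 815 and lowest in mouse 817, as the endothelial sum was (1959 and 629 FPKM), whose part in the Cxcl10 values was not tested. In b-KCs Cxcl10 was at 7.13, 6.02 and 10.3 FPKM across Co, at 13.7, 17.1 and 19.6 across GFP and at 7.51, 15.2 and 10.8 across Tom. The b-KC difference from Co was 1.03 ± 0.41 in GFP (adjusted p = 0.0574) and 0.44 ± 0.41 in Tom (adjusted p = 0.402), neither called, with 95% intervals of 0.15 to 1.91 and -0.44 to 1.32.

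Cxcl9 stayed low everywhere. It was at 0.0336, 0.0737 and 0.749 FPKM across HF-SC Co, at 1.00, 0.615 and 0.319 across HF-SC GFP and at 0.791, 1.26 and 0.0267 across HF-SC Tom, and these groups overlapped. In b-KCs it was at 0.0297, 0.198 and 0.169 FPKM across Co, at 2.18, 2.59 and 0.421 across GFP and at 0.633, 1.15 and 0.0869 across Tom. None of its differences from Co was called, the nearest being 1.16 ± 0.36 in b-KC GFP (adjusted p = 0.0170, limma). That difference was called with the mouse as a random block (adjusted p = 0.00658) and without mouse 817 (difference 1.58, adjusted p = 4.01e-05), within a range of 4.01e-05 to 0.105 over all alternatives. Cxcl9 reached 1 FPKM in 5 DKO* libraries and in no Co library, so it too passed the filter through DKO* cells alone.

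Group means of Cxcl16 ran from 35.0 FPKM in HF-SC Co to 82.3 in b-KC GFP. Its values were 36.0, 36.3 and 32.7 FPKM across HF-SC Co, 71.9, 81.6 and 71.7 across HF-SC GFP and 47.5, 52.1 and 45.2 across HF-SC Tom. The 3 groups did not overlap. In b-KCs it was at 43.6, 49.3 and 50.8 FPKM across Co, at 81.5, 93.8 and 71.7 across GFP and at 46.8, 64.2 and 36.0 across Tom, where the Tom libraries lay on both sides of Co. Cxcl16 rose by 1.08 ± 0.16 in HF-SC GFP (adjusted p = 1.09e-04, limma) and by 0.76 ± 0.16 in b-KC GFP (adjusted p = 0.00214). The b-KC GFP call was lost without any 1 mouse other than 817 (adjusted p = 0.0102 to 0.0190, and 1.79e-04 to 0.0190 over all alternatives). The Tom fractions were not called, with a difference of 0.45 ± 0.16 in HF-SCs (adjusted p = 0.0357, and 0.00779 without mouse 817, range 0.00779 to 0.128 over all alternatives) and of -0.00 ± 0.16 in b-KCs (adjusted p = 0.989, 95% interval -0.35 to 0.35).

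**Figure D2:**
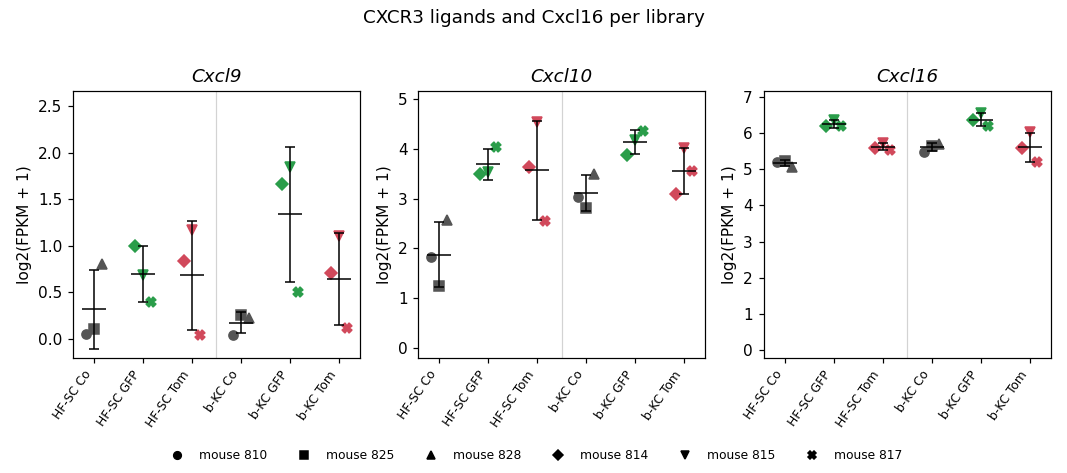
Panels plot log2(FPKM + 1) of Cxcl9, Cxcl10 and Cxcl16 in the 18 libraries, by group, with 1 symbol per mouse and bars for the mean and SD of 3 mice. Cxcl16 lies higher in the GFP groups than in Co and Tom of the same cell type, and Cxcl9 stays below 3 FPKM in every library.

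The constitutive ligands moved the other way and differed most between the cell types. Cxcl14 was at 1224, 907 and 1013 FPKM across HF-SC Co, the highest level of any of the 10 genes, at 258, 313 and 316 across HF-SC GFP and at 170.0, 242 and 257 across HF-SC Tom. In b-KCs it was at 33.3, 51.6 and 76.8 FPKM across Co, at 16.8, 19.4 and 40.5 across GFP and at 5.40, 8.72 and 27.2 across Tom. All DKO* HF-SC libraries and all b-KC Tom libraries lay below their Co, while 1 b-KC GFP library overlapped with Co. Cxcl14 fell by 1.82 on the log2 scale in HF-SC GFP (SE 0.44, adjusted p = 0.00418, limma), by 2.24 in HF-SC Tom (SE 0.44, adjusted p = 7.52e-04) and by 2.11 in b-KC Tom (SE 0.44, adjusted p = 0.00131). In b-KC GFP the difference was -1.07 ± 0.44 (adjusted p = 0.0616), and -1.45 without mouse 817 (adjusted p = 7.55e-04, and 7.55e-04 to 0.254 over all alternatives). The HF-SC GFP call was lost without any 1 mouse other than 817 (adjusted p = 0.0117 to 0.0298, and 1.20e-04 to 0.0298 over all alternatives), and the b-KC Tom call without mouse 814, 815 or 828 or with only the groups compared (adjusted p = 0.0116 to 0.0221, and 4.47e-06 to 0.0221 over all alternatives).

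Cxcl12 was at 38.5, 34.1 and 38.7 FPKM across HF-SC Co, at 18.2, 21.3 and 8.15 across HF-SC GFP and at 14.5, 21.2 and 7.14 across HF-SC Tom. It was at 4.24, 3.04 and 3.98 FPKM across b-KC Co, at 3.16, 3.84 and 2.09 across b-KC GFP and at 0.798, 0.949 and 0.869 across b-KC Tom. The DKO* HF-SC and b-KC Tom libraries lay below all Co libraries, and b-KC GFP overlapped with Co. Cxcl12 fell by 1.27 in HF-SC GFP (SE 0.33, adjusted p = 0.00653, limma), by 1.43 in HF-SC Tom (SE 0.33, adjusted p = 0.00251) and by 1.34 in b-KC Tom (SE 0.33, adjusted p = 0.00402). The difference in b-KC GFP was -0.25 ± 0.33 (adjusted p = 0.560, 95% interval -0.95 to 0.45). The HF-SC GFP call was lost without mouse 810, 814, 825 or 828, without a filter on low values or with only the groups compared (adjusted p = 0.0131 to 0.0324, and 6.28e-04 to 0.0324 over all alternatives). The HF-SC Tom call was lost without mouse 810, 814 or 828 or with only the groups compared (adjusted p = 0.0134 to 0.0188, and 1.35e-04 to 0.0188 over all alternatives), and the b-KC Tom call without mouse 810, 814, 825 or 828 (adjusted p = 0.0116 to 0.0258, and 1.81e-05 to 0.0258 over all alternatives).

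Fibroblasts also make Cxcl12 and Cxcl14, and 9 fibroblast markers summed to 70.6 to 119 FPKM in HF-SC Co, to 36.6 to 139 in HF-SC GFP and to 39.2 to 133 in HF-SC Tom, with the lowest sum of each DKO* group in mouse 817, which also had the lowest Cxcl12. In b-KCs the sum was 23.3 to 30.1 FPKM in Co, 37.6 to 40.2 in GFP and 36.1 to 70.3 in Tom. Fbln1 (5.60 to 8.63 FPKM in b-KC Co, 24.6 to 35.6 in b-KC Tom) and Thy1 (11.5 to 16.1 and 8.76 to 41.9) carried most of the b-KC sum, while Dcn went the other way, from 2.93 to 4.20 in b-KC Co to 1.42 to 2.47 in b-KC Tom, as did the lower Col1a2, from 0.645 to 1.02 to 0.0690 to 0.363. Of 7 fibroblast markers tested, 0 were called in either HF-SC comparison with Co and 1, Fbln1, was called higher in each b-KC comparison (limma). Against b-KC Co, the GFP fraction had 12.5% of all genes called higher and the Tom fraction 15.4%, so 1 of 7 is near the background. Part of the bulge markers were lower where the 2 ligands were. Of 8 tested, 4 were called lower in HF-SC GFP (Cd34, Lgr5, Lhx2 and Postn), 4 in HF-SC Tom (Cd34, Lgr5, Lhx2 and Sox9) and 4 in b-KC Tom (Lgr5, Lhx2, Nfatc1 and Sox9), where 12.3%, 13.9% and 15.3% of all genes were called lower. These are the populations where Cxcl12 and Cxcl14 were called lower. In b-KC GFP 0 of the 8 bulge markers were called. None was called higher in these 4 comparisons. Not all were lower in b-KC Tom, where Postn was at 174 to 539 FPKM against 98.0 to 236 in b-KC Co. Cd34 was at 0.341 to 2.53 against 1.13 to 2.04. The part of bulge or fibroblast markers in the Cxcl12 and Cxcl14 values was not tested.

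**Figure D3:**
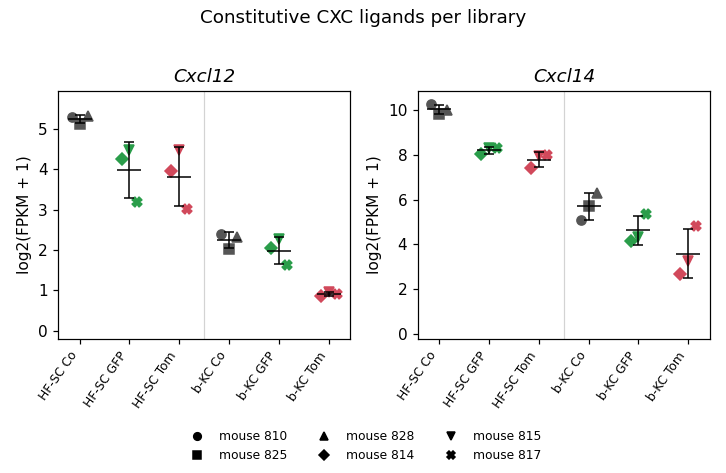
Panels plot log2(FPKM + 1) of Cxcl12 and Cxcl14 in the 18 libraries, by group, with 1 symbol per mouse and bars for the mean and SD of 3 mice. HF-SC Co libraries are the highest for both genes, and b-KC Tom libraries have the lowest group mean.

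The levels of each gene fell into an order that depended on the gene. Cxcl1 means ran from 318 ± 155 FPKM in HF-SC Tom (SD, n = 3) and 308 ± 56.6 in b-KC GFP, whose libraries overlapped, through 196 ± 44.2 in HF-SC GFP and 113 ± 43.5 in b-KC Tom, which overlapped as well, to 32.9 ± 9.18 in b-KC Co and 13.7 ± 6.72 in HF-SC Co, each apart from the next. For Cxcl2 the GFP groups led, with 33.0 ± 2.83 FPKM for HF-SCs and 32.0 ± 7.99 for b-KCs, which overlapped, and all groups below them were apart from each other. The GFP groups also led for Cxcl3, with 61.4 ± 11.0 and 60.7 ± 37.2 FPKM, and for Cxcl5, with 48.3 ± 36.0 in b-KCs and 27.2 ± 18.7 in HF-SCs, but neighbouring DKO* groups overlapped for both genes. Cxcl14 kept all HF-SC groups above all b-KC groups, from 1048 ± 161 FPKM in HF-SC Co to 13.8 ± 11.7 in b-KC Tom, and the 3 b-KC groups overlapped with their neighbours. Cxcl12 had the same order of groups, from 37.1 ± 2.60 FPKM to 0.872 ± 0.0757.

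Accounting for all 10 genes, HF-SC GFP had 6 called higher (Cxcl1, Cxcl2, Cxcl3, Cxcl5, Cxcl10, Cxcl16), 2 lower (Cxcl12, Cxcl14), 1 tested and not called (Cxcl9) and 1 not tested (Ppbp), where 13.0% of all 12751 genes tested were called higher and 12.3% lower. HF-SC Tom had 5 higher and 2 lower (background 15.7% and 13.9%), the 6 of HF-SC GFP without Cxcl16 and the same 2. b-KC GFP had 5 higher and 0 lower (background 12.5% and 12.0%), and b-KC Tom had 4 higher (Cxcl1, Cxcl2, Cxcl3 and Cxcl5) and 2 lower (background 15.4% and 15.3%). Cxcl2, Cxcl3, Cxcl5 and Cxcl9 could enter the test only through their DKO* libraries, so the counts of higher genes were not read against the background. In b-KCs the leukocyte sum was 1.62 to 1.95 FPKM in Co, 4.86 to 5.52 in GFP and 5.01 to 7.05 in Tom, with Cd68 called higher in both fractions, of 3 markers tested, and its part in the b-KC values was not tested. Comparisons of GFP and of Tom with Co use the same Co libraries and are not independent of each other.

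**Figure D4:**
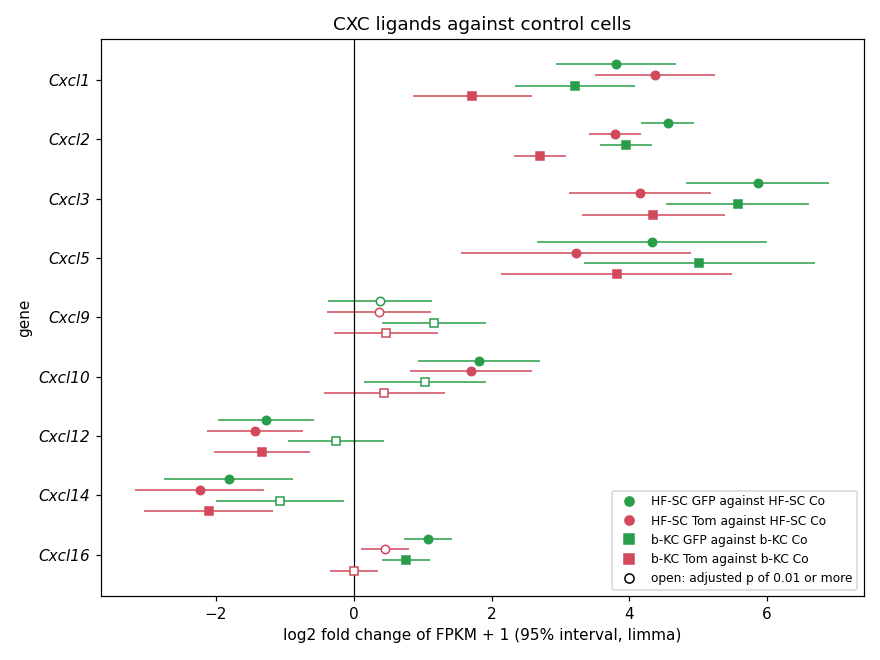
Points give the log2 fold change of FPKM + 1 of each tested CXC ligand (vertical axis) in 4 DKO* populations against Co of the same cell type, with the 95% interval from limma, and open symbols mark an adjusted p of 0.01 or more. Cxcl1, Cxcl2, Cxcl3 and Cxcl5 lie to the right of 0 in every population, while Cxcl12 and Cxcl14 lie to the left.

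Mutant and non-mutant fractions of the same mice were compared next, which asks how the ligands are shared between cells with and without the reporter switch. In HF-SCs 0 of 9 tested genes were called between GFP and Tom by limma (Cxcl2, Cxcl16 and Cxcl3, 3 in number, were those with an unadjusted p under 0.05, and also those with an adjusted p under 0.05), where 0.902% of all genes were called higher in GFP and 4.09% lower. In b-KCs 1 was called, Cxcl2, higher in GFP by 1.25 ± 0.18 (adjusted p = 0.00199, 95% interval 0.87 to 1.63), where 0.361% of all genes were called higher and 0.125% lower. Cxcl2 was higher in GFP than in Tom in 6 of 6 pairs from the same mouse. These pairs, here and below, come from 3 mice, each with 1 pair of HF-SCs and 1 of b-KCs, and are not 6 replicates. The share of all genes higher in GFP in 6 of 6 pairs was not computed. The b-KC call was lost with the mouse as a fixed block (adjusted p = 0.0359), with only the groups compared (0.1103) and without mouse 814 or 815 (0.0750 and 0.119), within a range of 1.14e-04 to 0.119 over all alternatives. In HF-SCs the difference of Cxcl2 was 0.77 ± 0.18 (adjusted p = 0.0115), called with a random block for the mouse (adjusted p = 0.00442) and not with a fixed block (0.0630, range 0.00442 to 0.121 over all alternatives).

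Cxcl16 was also higher in GFP in 6 of 6 pairs, by 0.63 ± 0.16 in HF-SCs (adjusted p = 0.0241, limma) and by 0.77 ± 0.16 in b-KCs (adjusted p = 0.0259). Both were called with a random block for the mouse (adjusted p = 0.00345 and 0.00319) and not with a fixed block (0.0550 and 0.0402, range 0.00319 to 0.272 over all alternatives of both). Cxcl12 and Cxcl14 too were higher in GFP in 6 of 6 pairs, with no difference called. Cxcl12 differed by 1.08 ± 0.33 in b-KCs (adjusted p = 0.122, and 7.89e-04 without mouse 817, range 7.89e-04 to 0.545 over all alternatives) and by 0.16 ± 0.33 in HF-SCs (adjusted p = 0.830). Cxcl14 differed by 0.42 ± 0.44 in HF-SCs (adjusted p = 0.657) and by 1.03 ± 0.44 in b-KCs (adjusted p = 0.352). For Cxcl10 the GFP fraction was higher in 4 of 6 pairs and for Cxcl9 in 5 of 6, with differences of 0.12 (adjusted p = 0.912) and 0.01 (adjusted p = 0.992) in HF-SCs and of 0.59 (adjusted p = 0.738) and 0.70 (adjusted p = 0.507) in b-KCs.

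Cxcl3 and Cxcl5 were higher in GFP in 5 of 6 pairs, and the exceptions came from mouse 817. In HF-SCs Cxcl3 differed by 1.70 ± 0.49 (adjusted p = 0.0392, limma) and, without mouse 817, by 2.38 (adjusted p = 8.45e-07, range 8.45e-07 to 0.448 over all alternatives). In b-KCs it differed by 1.22 ± 0.49 (adjusted p = 0.297) and, without that mouse, by 1.86 (adjusted p = 1.17e-04, range 1.17e-04 to 0.995). Cxcl5 differed by 1.10 ± 0.79 in HF-SCs (adjusted p = 0.487), by 1.78 there without mouse 817 (adjusted p = 0.00148, range 0.00148 to 0.977), and by 1.20 ± 0.79 in b-KCs (adjusted p = 0.687). Cxcl1 was split, with Tom above GFP in HF-SCs of mice 814 and 815 and GFP above Tom in the other 4 pairs. Its difference was -0.57 ± 0.41 in HF-SCs (adjusted p = 0.491, 95% interval -1.43 to 0.30) and 1.49 ± 0.41 in b-KCs (adjusted p = 0.0828), the latter 1.92 without mouse 817 (adjusted p = 0.00441, range 0.00441 to 0.545). In HF-SCs, 11 of 12 endothelial markers were called lower in GFP than in Tom (limma), where 4.09% of all genes were. Of the 11, Cdh5 and Kdr passed the filter only with their DKO* libraries. The 12 summed to 1886, 1959 and 629 FPKM in HF-SC Tom of mice 814, 815 and 817, and to 25.0, 38.4 and 1.98 in HF-SC GFP. Their part in the HF-SC differences of any ligand was not tested.

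**Figure D5:**
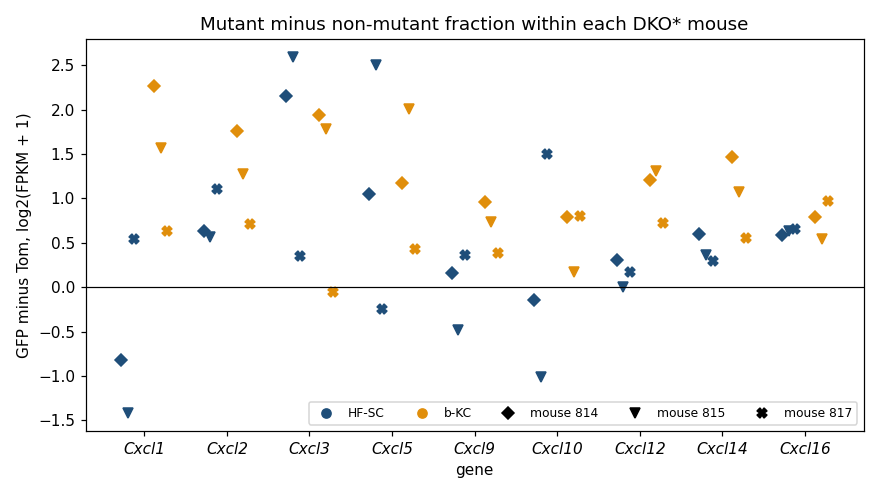
Points give the difference in log2(FPKM + 1) between GFP and Tom fractions of the same DKO* mouse for each tested CXC ligand, blue for HF-SCs and orange for b-KCs, with 1 symbol per mouse. All 6 points of Cxcl2 and of Cxcl16 lie above 0, while Cxcl1 lies below 0 in HF-SCs of mice 814 and 815.

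The cell types were then compared. In Co mice, Cxcl12 exceeded its b-KC level in HF-SCs by 3.01 ± 0.33 (adjusted p = 2.01e-06, limma) and Cxcl14 by 4.32 ± 0.44 (adjusted p = 9.53e-07), and these 2 were the members called in this comparison, where 18.7% of all genes were called higher in HF-SCs and 19.3% lower. Both calls held under all 15 alternatives. In the same comparison 7 of 8 bulge markers, 4 of 7 fibroblast markers (Col1a1, Col1a2, Col3a1 and Fbln1) and 11 of 12 endothelial markers were called higher in HF-SCs, while the fibroblast marker Thy1 was called lower (0.339 to 1.29 FPKM against 11.5 to 16.1). Their part in the 2 differences was not tested. Cxcl1, Cxcl2, Cxcl10 and Cxcl16 had lower means in HF-SC Co than in b-KC Co, but were not called (-1.26 ± 0.41, adjusted p = 0.0171, -0.53 ± 0.18, adjusted p = 0.0207, -1.24 ± 0.41, adjusted p = 0.0204, and -0.44 ± 0.16, adjusted p = 0.0342). With the mouse as a random block, Cxcl1, Cxcl10 and Cxcl16 were called (adjusted p = 0.00815, 0.00775 and 0.00834), as they were with a fixed block (3.29e-04, 2.72e-04 and 0.00733, range 2.72e-04 to 0.211 over all alternatives of the 3). Without mouse 817, all 4 were called (adjusted p = 0.00177, 0.00361, 0.00469 and 0.00719). That mouse is a DKO* mouse with no library in this comparison, so the differences were unchanged and only the spread estimated over the 6 groups moved. With only the groups compared, Cxcl1, Cxcl2 and Cxcl16 were called (adjusted p = 0.00959, 0.00772 and 0.00476). Cxcl2 was also called, with a difference of -1.14, with a pseudocount of 0.1 (adjusted p = 6.03e-04, range 6.03e-04 to 0.185 over its alternatives). Scaling the libraries to the upper quartile moved the median difference of all genes in this comparison from -0.06 to 0.10, more than in any other comparison. It did not turn the direction of Cxcl1, Cxcl2, Cxcl10, Cxcl12, Cxcl14 or Cxcl16. Cxcl3, Cxcl5 and Cxcl9, never called here, were not followed under the scaling.

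The change from Co to GFP did not pass the test of a difference between HF-SCs and b-KCs for any of the 9 tested genes (limma, 2 with an unadjusted p under 0.05, Cxcl2 and Cxcl12, where 3.32% of all genes were called with a larger value in HF-SCs and 1.89% with a smaller one). The change from Co to Tom was called larger in HF-SCs for 2 (background 5.93% larger and 2.12% smaller), Cxcl1, by 2.65 ± 0.58 (adjusted p = 0.00511), and Cxcl2, by 1.09 ± 0.25 (adjusted p = 0.00810). Both were lost without any 1 mouse other than 817 and without a filter on low values, and Cxcl1 also with only the groups compared (adjusted p = 0.0103 to 0.0750, and 7.20e-05 to 0.0750 over all alternatives of both). The endothelial sums given for HF-SC Tom apply to this result as well.

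Of the receptors, 8 were measured and 3 tested. Cxcr2, the receptor of the ELR ligands, was at 1.20 to 1.67 FPKM in Co cells and higher in each DKO* group, with 6.98 to 8.24 for HF-SC GFP, 4.23 to 6.07 for HF-SC Tom, 6.35 to 9.34 for b-KC GFP and 8.28 to 10.3 for b-KC Tom. It rose by 1.78 ± 0.15 in HF-SC GFP (adjusted p = 4.27e-07, limma), 1.25 ± 0.15 in HF-SC Tom (adjusted p = 9.92e-06), 1.77 ± 0.15 in b-KC GFP (adjusted p = 1.22e-06) and 2.06 ± 0.15 in b-KC Tom (adjusted p = 2.13e-07). Cxcr2 is also a neutrophil marker, and 11 such markers were measured. Without Cxcr2, the other 10 summed to 0.876 to 1.10 FPKM in HF-SC Co, 2.69 to 8.81 in HF-SC GFP and 3.87 to 4.79 in HF-SC Tom, and to 2.46 to 4.98 FPKM in b-KC Co, 2.21 to 3.97 in b-KC GFP and 0.347 to 1.17 in b-KC Tom. Their sum was thus higher in DKO* than in Co HF-SCs, overlapped between b-KC GFP and b-KC Co, and was lower in b-KC Tom. Most of the b-KC Co sum was Fcgr3, which set the direction in b-KCs. It was at 1.92 to 4.55 FPKM in b-KC Co, 0.332 to 0.747 in b-KC GFP and 0.0749 to 0.299 in b-KC Tom. Itgam was at 0.283 to 0.304, 0.331 to 0.734 and 0.0756 to 0.212 in the same order. Cxcr2 was higher in all 4 DKO* groups. Of 3 tested, Itgam, which passed the filter through DKO* libraries alone, was called higher besides Cxcr2 in HF-SC GFP, where 13.0% of all genes were. Fcgr3 was called lower in both b-KC comparisons, where 12.0% (b-KC GFP) and 15.3% (b-KC Tom) of all genes were. Among markers that did not pass the filter, Retnlg was at 0 in every Co library and reached 2.19 FPKM in HF-SC Tom and 0.696 in b-KC GFP, Camp was at most 0.163 in Co and 0.471 to 1.52 in b-KC GFP, and Mmp8 was at most 0.0999 in Co and reached 0.686 in HF-SC GFP. Csf3r stayed at or below 0.367 FPKM, Mpo at or below 0.0577, and Ngp, Ltf and Elane at or below 0.145 in every library. The part of neutrophil RNA in the Cxcr2 values was not tested.

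Ackr1, an atypical receptor that takes up chemokines and is typical of venous endothelium and red cells, was at 15.2 to 27.4 FPKM in HF-SC Co, at 0.145 to 5.44 in HF-SC GFP and at 138 to 480 in HF-SC Tom, moving with the endothelial sums. It fell by 2.76 in HF-SC GFP (SE 0.51, adjusted p = 5.88e-04, limma) and rose by 3.79 ± 0.51 in HF-SC Tom (adjusted p = 2.88e-05). Ackr3, the scavenging receptor of Cxcl12, rose by 1.21 ± 0.26 in HF-SC Tom (adjusted p = 0.00152) and was not called in the other 3 comparisons with Co. In HF-SC Tom it was at 71.1, 71.8 and 34.6 FPKM, lowest in mouse 817 like the endothelial sum (1886, 1959 and 629 FPKM), whose part in the Ackr1 and Ackr3 values was not tested. Cxcr4 was at or below 1.13 FPKM, Cxcr3 at or below 0.260 and Cxcr1, Cxcr5 and Cxcr6 at or below 0.348 in every library. The median change of the 3 tested receptors was -0.43 for HF-SC GFP, 1.25 for HF-SC Tom, -0.01 for b-KC GFP and 0.10 for b-KC Tom, beside -0.05, -0.04, -0.03 and -0.02 over all genes.

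Of 16 genes that induce ELR ligands or act back on them, 15 were tested. The shares of all genes called higher and lower were 13.0% and 12.3% in HF-SC GFP, 15.7% and 13.9% in HF-SC Tom, 12.5% and 12.0% in b-KC GFP and 15.4% and 15.3% in b-KC Tom. In HF-SC GFP 5 rose (Il17c, Il1a, Il1b, Tnf and Zc3h12a) and 0 fell (limma, median change 0.47). In HF-SC Tom 6 rose (Il1a, Il1b, Il1r1, Nfkbiz, Tnf and Zc3h12a) and 1 fell (Traf3ip2, the adaptor of the interleukin-17 receptor, median 0.40). In b-KC GFP 6 rose (Il17c, Il1a, Nfkb1, Tnf, Tnfrsf1a and Zc3h12a) and 2 fell (Nfkbiz and Zfp36, median 0.19). In b-KC Tom 2 rose (Nfkb1 and Zc3h12a) and 3 fell (Nfkbia, Nfkbiz and Zfp36, median 0.28), and for b-KC Tom these shares of the list are near those of all genes. Il17c and Il1b reached 1 FPKM in DKO* libraries alone and could enter the test only through them, so the counts of higher genes that hold them were not read against the background. Il1r1 in HF-SC Tom (26.0, 27.1 and 14.7 FPKM) was also lowest in mouse 817, as the endothelial sum was, whose part in it was not tested.

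Il1a, which encodes interleukin-1 alpha, was at 0.603 to 0.963 FPKM in HF-SC Co, at 38.8 to 89.8 in HF-SC GFP and at 5.59 to 6.46 in HF-SC Tom. It rose by 5.18 ± 0.36 in HF-SC GFP (adjusted p = 8.32e-08, limma) and the GFP fraction exceeded the Tom fraction of HF-SCs by 3.23 ± 0.36 (adjusted p = 1.50e-05). Tnf went from 0.194 to 0.502 FPKM in HF-SC Co to 6.34 to 11.9 in HF-SC GFP, a rise of 2.91 ± 0.27 (adjusted p = 1.09e-06). Il17c, an epithelial interleukin-17 family cytokine, was at or below 0.198 FPKM in Co and at 0.719 to 9.35 in the GFP groups, with its lower values in mouse 817. Il17a was at or below 0.115 FPKM in every library. Zc3h12a, a ribonuclease that degrades inflammatory transcripts, rose in all 4 populations, by 0.65 to 2.39. Zfp36, whose protein destabilizes AU-rich transcripts, was at 577 to 700.4 FPKM in b-KC Co, at 230.4 to 383 in b-KC GFP and at 106 to 247 in b-KC Tom, and fell by 1.18 and 1.90 (SE 0.27, adjusted p = 0.00301 and 5.54e-05).

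Of 12 genes of the interferon route that leads to Cxcl9 and Cxcl10, 10 were tested, and Ifng was listed at 0 in every library. In HF-SC GFP 1 rose (Ifngr1) and 0 fell, in HF-SC Tom 4 rose (Ifnar2, Ifngr1, Irf7 and Jak1) and 0 fell, in b-KC GFP 1 rose (Ifnar2) and 1 fell (Jak2), and in b-KC Tom 1 rose (Ifnar2) and 1 fell (Stat2). The median change was 0.45, 0.65, 0.02 and 0.05 in that order. Of all genes 12.5% to 15.7% were called higher and 12.0% to 15.3% lower in these comparisons, so 1 of 10 is near the background. Ifnar2 in HF-SC Tom (43.4, 38.7 and 17.4 FPKM) was lowest in mouse 817, as the endothelial sum was, whose part in it was not tested. Of 5 proteases that act on chemokines, all tested, Adam10, Dpp4 and Mmp9 rose in HF-SC GFP, Adam10 and Mmp9 in HF-SC Tom, and Mmp2 fell in both b-KC populations (medians 0.98, 0.96, -0.43 and 0.42), where 13.0% of all genes were called higher in HF-SC GFP, 15.7% higher in HF-SC Tom, and 12.0% and 15.3% lower in the b-KC GFP and b-KC Tom comparisons. Mmp9 reached 1 FPKM in 9 DKO* libraries and 1 Co library. It could enter the test only through DKO* cells, so counts of higher genes that hold it were not read against these shares. Adam10 was at 18.5 to 23.0 FPKM in HF-SC Co and at 40.1 to 42.9 in HF-SC GFP, a rise of 0.98 ± 0.19 (adjusted p = 7.29e-04, limma). In HF-SC Tom it was at 42.6 to 65.9 FPKM, where the part of the endothelial markers was not tested either. Mmp9 was at or below 0.154 FPKM in HF-SC Co and at 5.17 to 20.7 in HF-SC GFP.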

How the data were processed

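RNA-seq of 18 libraries of sorted mouse ear skin cells was used, grouped by the labels, and no library was left out. Reads of 51 bases, single-end, were mapped to mm9 (NCBI37) by the authors using TopHat 2.0.10 on Bowtie 1.0.0, with up to 2 mismatches and 20 multihits, and what they deposited is a table of FPKM values by gene and library. The submitters' processing notes name Cufflinks 2.2.1. Libraries were not stranded, so antisense and overlapping genes are uncertain, as are near-identical paralogs.

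The 12751 of 23951 genes that reached 1 FPKM in 3 or more libraries were fitted as log2(FPKM + 1), which understates changes of low genes, with limma 3.58.1 in R 4.3.3 (eBayes with trend, 1 mean per group, 9 comparisons) and called at a Benjamini-Hochberg adjusted p under 0.01. Values after ± are SE unless stated. Other steps used Python 3.11.15, pandas 2.3.3, numpy 2.4.6 and matplotlib 3.10.9. Implied reads came from FPKM steps of 6914 genes with 1 transcript, where 79.3% to 84% of low values were whole reads to within 0.1. PCR copies were not marked by molecular identifiers, so reads are not independent and the floor of 3 reads covers counting error only. The fit was tested on simulated data.

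Mouse numbers in the labels pair libraries of the same animal. Deviations from group means correlated within 15 same-mouse pairs with r from 0.0838 to 0.700, above 0.1 in 14. The mouse entered as a block in alternative fits only. The members and the gene lists were chosen with earlier results of these data known. Named genes were the members, listed genes called against Co, Jun and Junb, markers by list, and for each member the 3 genes with the highest Pearson r. Values of single marker genes and of Il17a, Ifng, Cxcr1, Cxcr3, Cxcr4, Cxcr5, Cxcr6, Krt14, Krt15 and Cd34 were chosen after they were seen. An entry of the interferon list is not reported here, and the counts and medians of that list leave it out. Alternatives were another pseudocount, no filter, only the groups compared, no trend, upper-quartile scaling, other thresholds, fits with a mouse block and fits without 1 mouse.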

Additional observations from a re-analysis of the deposited data

Results flagged for a closer look

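A difference between the cell types in the response of the non-mutant fraction drew attention for both Cxcl1 and Cxcl2. From Co to Tom, Cxcl1 changed more in HF-SCs, by 2.65 above its change in b-KCs (log2(FPKM + 1) scale, adjusted p = 0.00511, limma), and Cxcl2 by 1.09 (adjusted p = 0.00810). For Cxcl1 all 3 HF-SC Tom libraries and all 3 b-KC Tom libraries lay above their Co libraries, as they did for Cxcl2, so the cell types differed in size and not in direction. Leaving out mouse 810, 814, 815, 825 or 828 moved the adjusted p to between 0.0103 and 0.0647 for Cxcl1 and between 0.0148 and 0.0750 for Cxcl2. The difference then was 2.12 to 2.86 for Cxcl1 and 0.89 to 1.24 for Cxcl2. Without mouse 817 it was 3.45 for Cxcl1 (adjusted p = 7.20e-05) and 1.29 for Cxcl2 (adjusted p = 5.09e-04). Within mice 814, 815 and 817, HF-SC Tom minus b-KC Tom was 2.47, 1.91 and -0.20 for Cxcl1, so in mouse 817 the HF-SC value was the lower one, and 0.94, 0.57 and 0.14 for Cxcl2. HF-SC Co minus b-KC Co was -0.85, -1.28 and -1.65 for Cxcl1 and -0.55, -0.22 and -0.83 for Cxcl2 in mice 810, 825 and 828. No group of 3 libraries was tested for a library apart from the others.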

How the results depend on the processing

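Values of single CXC ligands were followed for the 46 pairs of gene and comparison that were called in the main fit or under some alternative. Of these values, 549 kept their direction and their side of the threshold, 73 were no longer called, 37 became called and 0 changed direction. Pairs never called, where a small difference could turn, were left out, so the 0 says nothing about them. Counts of called members kept within 1.5 times of the count reported under all other alternatives than those given here, and the causes were not tested. Requiring a log2 fold change of at least 2 as well left 4 of 8 in HF-SC GFP against Co, 0 of 1 in b-KC GFP against b-KC Tom and 1 of 2 for the change from Co to Tom between cell types. At an adjusted p under 0.05 the counts were 3 in HF-SC GFP against HF-SC Tom, 2 in b-KC GFP against b-KC Tom and 6 between the Co cell types. With only the groups compared they were 0 in b-KC GFP against b-KC Tom, 5 between the Co cell types and 1 for the change from Co to Tom, and without a filter 0 for that change. Upper-quartile scaling gave 1 in HF-SC GFP against HF-SC Tom. The random replicate block gave 2, 2 and 5 in HF-SC GFP against Tom, b-KC GFP against Tom and HF-SC Co against b-KC Co, and the fixed replicate block 0, 0 and 5, with other counts under the block within 1.5 times.

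Leaving out 1 mouse gave 5 to 8 in HF-SC GFP against Co, 4 to 8 in HF-SC Tom against Co, 4 to 7 in b-KC GFP against Co, 3 to 6 in b-KC Tom against Co, 0 to 2 in HF-SC GFP against Tom, 0 to 4 in b-KC GFP against Tom, 2 to 6 between the Co cell types and 0 to 2 for the change from Co to Tom, and the highest count came without mouse 817 in each of these. For the change from Co to GFP it was 0 each time. Mouse 817 has no library in the comparison of the Co cell types. Depth limits Ppbp, whose values rest on at most 14 implied reads.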

Other observations

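Of 5 further CXC ligands measured, Cxcl11, Cxcl13, Cxcl15 and Cxcl17 did not pass the filter. Pf4, platelet factor 4, was tested and not called in any comparison (limma, adjusted p = 0.0459 in HF-SC GFP against Co). It was at 1.24, 0.728 and 0.977 FPKM in HF-SC Co, at 1.98, 1.82 and 21.7 in HF-SC GFP and at 1.95, 2.2 and 7.06 in HF-SC Tom, the highest value of both HF-SC DKO* groups coming from mouse 817.

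The genes most like each CXC ligand were ranked by Pearson r of log2(FPKM + 1) over the 18 libraries, which share mice and cell types, so that r is a description. Cxcl1 was most like Cxcl2 (r = 0.940) and Gch1 (0.928), and Cxcl2 was most like 4732490B19Rik (0.9703), Cldn7 (0.968) and Cxcl3 (0.966). Cxcl3 was most like Gm5416 (0.972), Klk10 (0.971) and Uox (0.971), and Cxcl5 like Rnase2b (0.982), Sprr2b (0.978) and Lipn (0.977). The nearest gene was Defa-ps12 for Cxcl9 (0.888) and Rassf6 for Cxcl10 (0.851). Cxcl12 was most like Upb1 (0.981), Cxcl14 like Egfl6 (0.984), Nrbp2 (0.981) and Bace1 (0.980), and Cxcl16 like Zmynd15 (0.930) and Slpi (0.915).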
